A study of Homo sapiens with 402 samples.

Results

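The 30 genes described here encode the enzymes that build cholesterol and fatty acids and the proteins that regulate those enzymes. They were taken by symbol from a fixed list of cholesterol pathway, SREBP regulator and fatty acid synthesis genes, and all 30 were present among the 34718 symbols listed in the files of 4 plates and among the 15081 symbols listed in the files of an earlier run. MCF10A, a non-tumorigenic epithelial line from human breast, was grown at passage 105, seeded at 500 cells per well and exposed to 1 of 21 chemicals for 48 h. Each chemical was given at 0.025, 0.25, 2.5 and 25 µM, and RNA was counted by plexWell, a plate-based RNA-seq method in which each well receives its own barcode. The labels state 4 biological replicates per dose. They do not say how the control wells were replicated, so a p-value measures the spread between these libraries, which may in part be technical.

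Arsenic, cadmium, copper, lead and mercury shared a plate with 15 water controls. BPA, BPF, BPS, MPB and PPB shared a plate with 15 DMSO controls, and DCB_14, DCP_25, PCB153, PCB187 and thiram shared another with 15 DMSO controls. PFDA, PFNA, PFOS and phenanthrene were compared with 12 DMSO controls of their plate, and PFOA, given in water, with 4 water controls of that plate. DDE came from the earlier run, where the exposed libraries are labelled DMSO and the 8 controls with the same plate barcode are labelled water. The plate labels of these controls also differ from those of the DDE libraries, although the barcode is shared. Exposure, solvent and plate label therefore cannot be told apart for DDE. All cells were wild type and from 1 line, and no group carried another allele or agent.

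Cholesterol synthesis starts from acetyl-CoA and runs through the mevalonate pathway to farnesyl diphosphate, then through squalene and lanosterol to cholesterol. Fatty acid synthesis starts from the same acetyl-CoA, which ACLY and ACSS2 supply to the cytosol, and runs through ACACA, FASN, ELOVL6 and the desaturases. The transcription factors SREBF2 and SREBF1 switch these genes on when membrane sterol is low, and INSIG1 holds the SREBP precursors in the endoplasmic reticulum when sterol is high. In epithelial cells in culture the pathway supplies membrane for growth, and its genes commonly move together when sterol supply changes.

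SREBP proteins bind the sterol regulatory element together with NF-Y, a factor that recognises the sequence CCAAT. Promoter sequences from RefSeq (GRCh38.p14, 250 bases before to 50 bases after the annotated start) were found for 26 of the 30 genes. CCAAT was present on either strand in 18 of the 26 promoters, 69.2%, against 35.7% of 27305 RefSeq promoters of that length. The sterol element TCACNCCAC was found on either strand in 1 promoter, that of SREBF2, which is 3.85% of the 26 against 1.15% of all. The E-box CACGTG, which reads the same on both strands, was found in those of LSS, SC5D and INSIG1, 11.5% against 7.43%. These matches are a description of letters and are no evidence of binding. The promoters of HMGCS1, LSS, DHCR7 and SREBF2 are shown because the first 3 belong to genes on which the results below turn and the last holds the sterol element. That of IDI1 is shown as one without CCAAT. Its window lies outside and upstream of the gene's span in GENCODE v29, chr10:1039152-1049170, so it belongs to a different annotated start. Which start these cells use was not tested. Each is written 5′ to 3′ on the strand of its gene, with CCAAT on either strand and, for SREBF2, the sterol element in capitals.
HMGCS1, chr5:43313363-43313662, minus strand: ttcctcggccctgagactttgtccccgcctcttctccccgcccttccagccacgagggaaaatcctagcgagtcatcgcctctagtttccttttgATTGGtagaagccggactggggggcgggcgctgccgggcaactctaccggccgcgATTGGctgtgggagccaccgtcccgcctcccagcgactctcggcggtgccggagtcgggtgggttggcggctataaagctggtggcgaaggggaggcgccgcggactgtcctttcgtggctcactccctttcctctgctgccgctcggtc
LSS, chr21:46228725-46229024, minus strand: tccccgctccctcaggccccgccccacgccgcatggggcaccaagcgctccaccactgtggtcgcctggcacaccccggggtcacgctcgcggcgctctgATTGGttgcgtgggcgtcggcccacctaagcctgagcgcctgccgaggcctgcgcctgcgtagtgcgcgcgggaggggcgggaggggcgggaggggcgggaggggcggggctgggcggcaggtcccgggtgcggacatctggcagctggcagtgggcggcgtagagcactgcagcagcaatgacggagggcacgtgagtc
DHCR7, chr11:71448344-71448643, minus strand: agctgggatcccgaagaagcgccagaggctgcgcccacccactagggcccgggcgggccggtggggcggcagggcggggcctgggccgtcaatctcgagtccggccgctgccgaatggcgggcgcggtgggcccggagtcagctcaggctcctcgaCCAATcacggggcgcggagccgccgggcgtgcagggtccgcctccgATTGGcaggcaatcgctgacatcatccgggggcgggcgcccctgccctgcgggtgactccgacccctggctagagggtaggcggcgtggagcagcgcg
SREBF2, chr22:41832855-41833154, plus strand: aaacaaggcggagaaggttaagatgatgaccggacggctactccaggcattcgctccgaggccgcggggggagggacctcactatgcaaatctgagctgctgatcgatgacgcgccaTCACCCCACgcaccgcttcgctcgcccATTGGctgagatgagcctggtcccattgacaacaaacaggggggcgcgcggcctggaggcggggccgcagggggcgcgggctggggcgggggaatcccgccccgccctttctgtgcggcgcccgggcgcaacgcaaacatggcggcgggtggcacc
IDI1, chr10:1056655-1056954, minus strand: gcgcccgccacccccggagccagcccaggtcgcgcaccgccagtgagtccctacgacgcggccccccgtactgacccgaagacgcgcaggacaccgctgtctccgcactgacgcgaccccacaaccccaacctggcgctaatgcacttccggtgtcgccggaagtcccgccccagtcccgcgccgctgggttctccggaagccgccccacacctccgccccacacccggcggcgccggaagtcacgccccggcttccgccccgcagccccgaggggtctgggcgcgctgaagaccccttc
In HMGCS1 the 2 CCAAT matches begin at 155 and 100 bases before the start, in DHCR7 at 94 and 48 and in LSS at 150. In SREBF2 the sterol element begins at 133 bases before the start and CCAAT at 106. The largest numbers of CCAAT matches were 5 in MVK and 5 in NSDHL, followed by 4 in MSMO1.

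Of 402 libraries, 401 were used, 332 dosed and 69 controls. The library labelled cadmium 25 µM replicate 4 carries the barcode of another plate and was set aside, which left 2 libraries at that dose. MPB and PPB at 0.025 µM had 3 libraries each, and every other dose had 4. Total counts ran from 1.43 to 25.8 M counts per library. On each of the 4 large plates the last-numbered controls were shallower than the first-numbered ones, from a median of 3.17 against 20.9 M on the metal plate to 8.77 against 15.7 M on the BPA plate. For this reason dosed replicates 1 and 2 were also compared with the first-numbered controls and replicates 3 and 4 with the last-numbered ones. The labels name no batch for these numbers. Basal epithelial markers were expressed, with KRT5 at a median of 981 to 3377 CPM (read counts scaled to library size) by plate, while TP63 was low at medians of 1.94 to 11.8 CPM. Of the other basal markers, KRT14 varied widely, with medians of 7.93 to 353 CPM by plate, and KRT15 was low at 2.80 to 12.2 CPM. PTPRC, CD3E, VWF and PGR had medians of 0 on the 4 large plates, and ESR1 of at most 0.048 CPM. PECAM1 had medians of 0.65 to 1.59 CPM and COL1A1 of 1.70 to 3.54 CPM there. On the DDE plate the COL1A1 median was 12.8 CPM.

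In unexposed cells of the metal plate the mean level per kilobase of exon was highest for FDPS, the farnesyl diphosphate synthase, at 255 CPM per kb. MSMO1, a sterol methyl oxidase, followed at 131, FDFT1, the squalene synthase, at 124, DHCR7, the last reductase of one branch to cholesterol, at 111 and SCD, the stearoyl-CoA desaturase, at 97.4 CPM per kb. The lowest levels were 3.68 CPM per kb for CYP51A1, the lanosterol demethylase, 4.78 for STARD4, a sterol carrier, and 5.83 for TM7SF2, a sterol reductase. For CYP51A1, 83.2% of the exon bases of GENCODE v29 also lie in exons of other genes, and for ACAT2, the acetyl-CoA acetyltransferase, 52.3% do. The strand setting of the counting is not given in the sources used here, so reads from such overlaps cannot be told apart and the values of these genes are uncertain. FADS1 and FADS2 overlap each other. Whether reads of FDPS and HSD17B7 are shared with copies elsewhere in the genome was not examined.

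Each chemical and dose was tested against the controls of its plate, for DDE those with its plate barcode. The test was edgeR's quasi-likelihood test over all genes that passed the count filter. A gene is called where its Benjamini-Hochberg adjusted p was under 0.05. All 30 genes passed the filter on every plate. At 25 µM there were 97 calls over the 21 chemicals, 81 lower and 16 higher, and they came from 8 chemicals. The numbers of the 30 genes called lower were 22 for arsenic, 18 for copper, 17 for thiram, 15 for DDE, 5 for cadmium, 3 for PCB187 and 1 for BPA. The numbers called higher were 9 for cadmium, 4 for thiram, 2 for lead and 1 for arsenic. The share of all tested genes called in either direction was 41.4% for arsenic, 25.9% for thiram, 11% for cadmium, 7.77% for DDE, 5.09% for copper and 3.85% for lead, but 0.0235% for PCB187 and 0.00448% for BPA. In bulk RNA, fewer cells expressing a gene and less RNA per cell cannot be told apart.

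**Figure D1:**
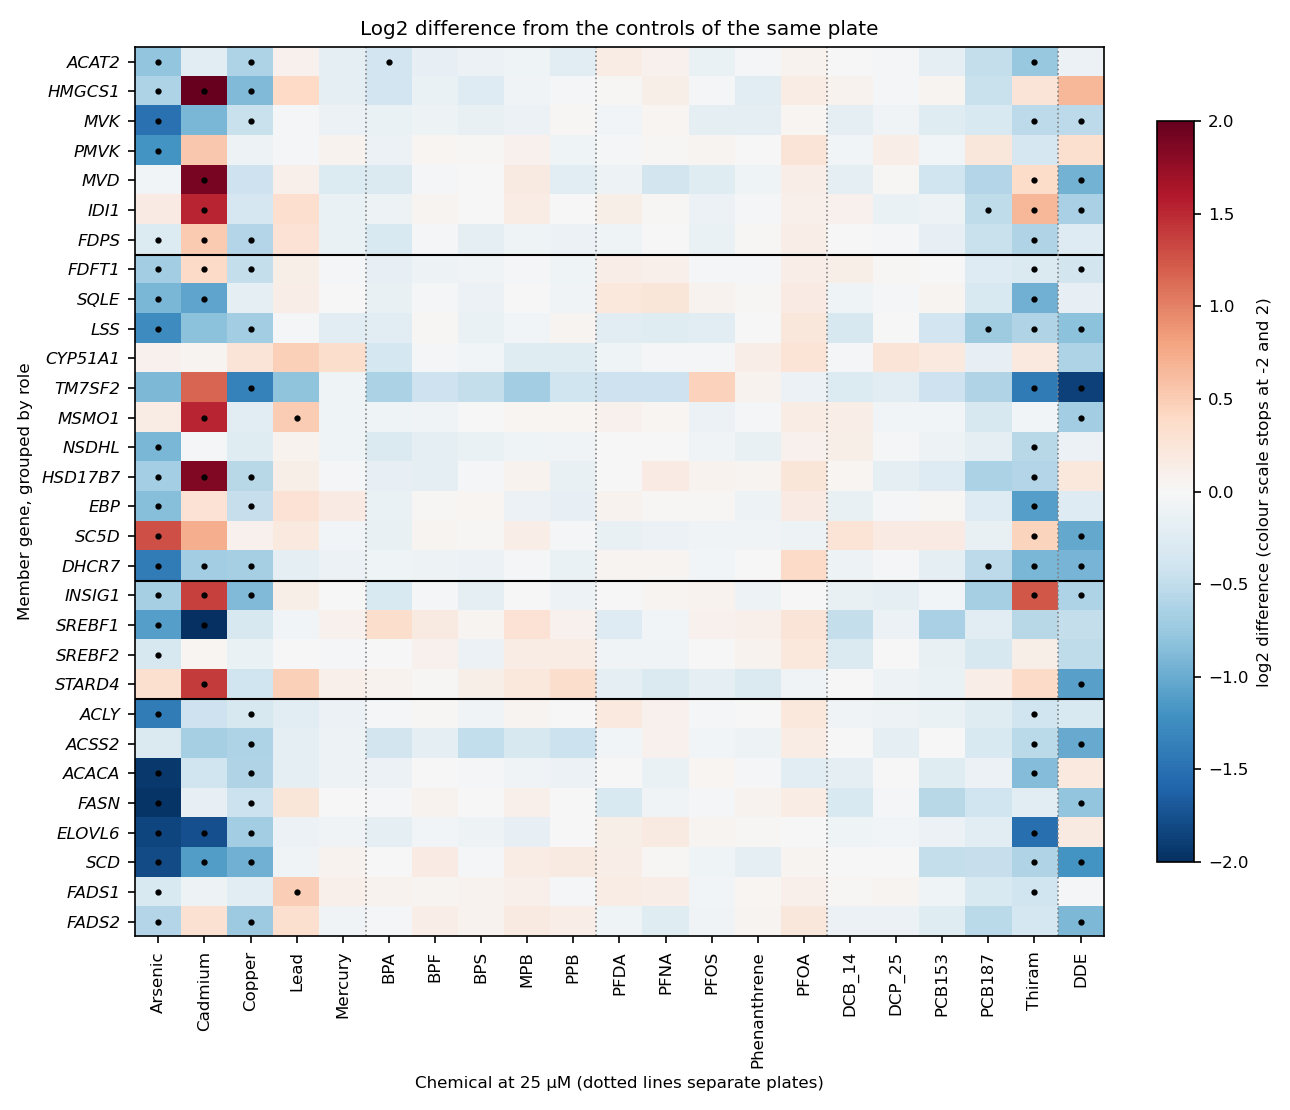
Log2 fold change of each of the 30 genes (rows, grouped by role) at 25 µM of each chemical (columns, grouped by plate) against that plate's controls, with a dot where the gene was called at adjusted p under 0.05 and the colour scale stopping at 2 in each direction. Calls are concentrated in the columns of arsenic, copper, thiram and DDE, where most are lower, and of cadmium, where 9 of 14 are higher.

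The other 13 chemicals had no call among the 30 genes at 25 µM with edgeR. Between 0 and 6 of the 30 passed an unadjusted p of 0.05 in each of these comparisons, and DESeq2 called 1 member in all 13, with PFDA. The background was low there as well. It was 1.38% for MPB, 0.0668% for PFDA and 0.0668% for PFOS, 0.0617% for mercury, 0.0179% for BPF, 0.00514% for PFNA, 0.00469% for DCB_14, 0.00469% for PCB153 and 0.00448% for PPB, and 0% for BPS, PFOA, phenanthrene and DCP_25. At this depth no change in these genes was detectable for them. On data simulated for PCB187 and lead at 25 µM, most changes of 0.4 log2 were missed. MPB, a paraben, was the exception to the low background, with 307 genes called and none of the 30 among them.

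At 25 µM copper, genes of all 4 roles were lower. Of the 7 genes from ACAT2 to FDPS, 4 fell, of the 11 squalene and sterol enzymes 6, of the 4 regulators and carriers 1, and of the 8 fatty acid genes 7. The median of the 30 genes was -0.46 log2 against -0.01 over all genes tested. DHCR7 stood at 141, 157, 233 and 217 CPM in the libraries numbered 1 to 4 and at 272 to 311 CPM, median 297, in the 15 controls. Every copper library lay below every control (log2 fold change -0.66, SE 0.105, edgeR adjusted p = 2.176e-06). LSS, which closes squalene epoxide into lanosterol, measured 64.5, 48.6, 89.5 and 70.9 CPM against 79.3 to 138 in controls, median 111. The copper library numbered 3 overlapped the controls (log2 -0.70, SE 0.11, edgeR adjusted p = 2.303e-06).

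Upstream of squalene, FDPS read 265, 259, 308 and 292 CPM with copper at 25 µM and 374 to 473 in controls, without overlap (log2 -0.58, SE 0.0975, edgeR adjusted p = 8.261e-06). HMGCS1, which makes HMG-CoA, read 51.5 and 51.6 CPM in numbers 1 and 2 but 136 and 147 in numbers 3 and 4 (log2 -0.89). Its controls also split, from 130 to 162 CPM among the first numbers and 198 to 227 among the last, so each pair of copper libraries lay below the controls of its own numbers. Of the fatty acid genes, SCD showed the same split, with 147 and 171 CPM against 400 and 363 CPM, all below the 436 to 578 CPM of the controls (log2 -0.96). ELOVL6, a fatty acid elongase, measured 52.7, 66.1, 106 and 116 CPM against 115 to 182 (log2 -0.70, SE 0.115, edgeR adjusted p = 5.01e-06). FASN (log2 -0.43), ACACA (-0.60) and ACLY (-0.31) also fell. INSIG1, at 36.5, 51.8, 93.1 and 90 CPM against 83.3 to 138 in controls, was the 1 regulator that fell (log2 -0.88), while SREBF1 and SREBF2 were not called.

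**Figure D2:**
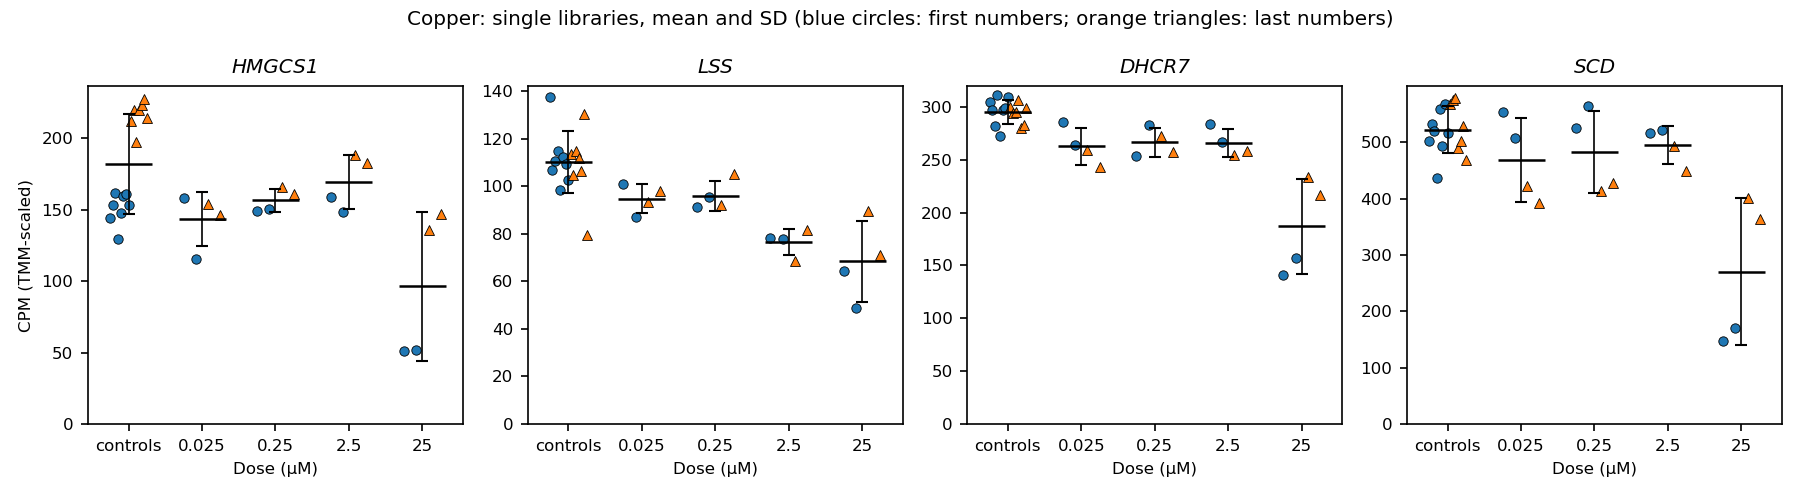
CPM (y axis, linear from 0) of HMGCS1, LSS, DHCR7 and SCD in each library of the copper dose series (x axis, dose in µM) and the water controls of its plate, with circles for the first and triangles for the last numbers, a bar for the group mean and an error bar of 1 SD. At 25 µM the circles of SCD and HMGCS1 lie well below the triangles (147 and 171 against 400 and 363 CPM for SCD).

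Tested within the numbers, replicates 1 and 2 of copper at 25 µM had 25 of the 30 genes lower (median -0.71 log2, 8.47% of all genes called) and replicates 3 and 4 had 5 lower (median -0.26, 1.82% called). The difference between the number sets was itself called for 9 of the 30, against 0.543% of all genes. SCD was 1.71 lower on the log2 scale in replicates 1 and 2 and 0.48 lower in replicates 3 and 4, a difference of 1.23 (SE 0.141). INSIG1 (log2 -1.57 and -0.33), FADS2 (-1.21 and -0.15), HMGCS1 (-1.56 and -0.61), MVK (-1.01 and -0.11), ACAT2 (-1.12 and -0.28), ELOVL6 (-1.12 and -0.45), DHCR7 (-0.99 and -0.38) and FDFT1 (-0.80 and -0.26) differed in the same way. All 9 estimates were below 0 in both number sets. In replicates 3 and 4 only SCD, HMGCS1, ELOVL6 and DHCR7 of these were called lower. For INSIG1, FADS2, MVK, ACAT2 and FDFT1 the fall was called in replicates 1 and 2 alone. Without replicate 1 of each dose 11 genes were called with copper at 25 µM.

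**Figure D3:**
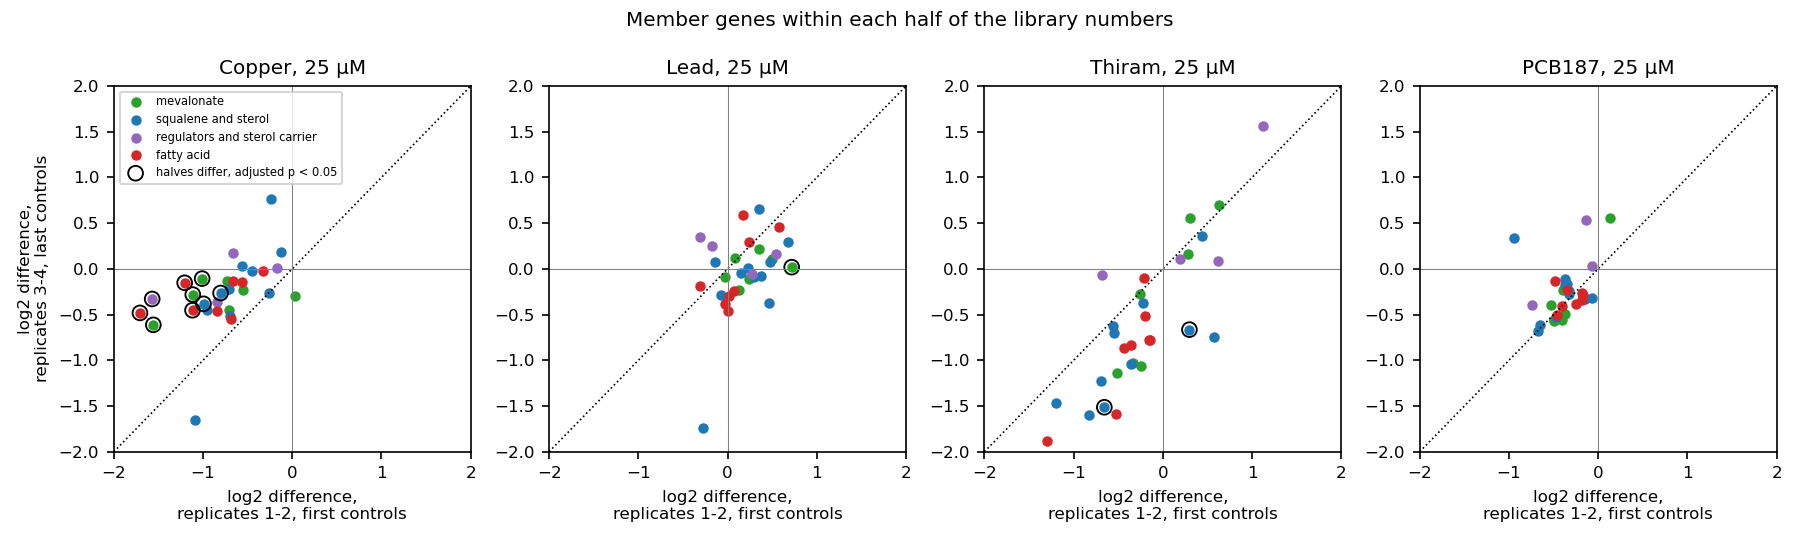
Log2 fold change at 25 µM of each of the 30 genes (points coloured by role) in replicates 1 and 2 against the first-numbered controls (x axis) and in replicates 3 and 4 against the last-numbered controls (y axis), for copper, lead, thiram and PCB187, with a dotted line of equality and a black ring where the difference between the number sets was called. For copper most points lie above the line, as for SCD at -1.71 and -0.48.

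At 2.5 µM copper, 2 of the 30 genes were called lower, against 3% of all genes. LSS measured 78.2, 77.9, 68.6 and 81.7 CPM (log2 -0.53) and TM7SF2 was 1.27 lower on the log2 scale. With the dose fitted as a trend over the 4 doses, 10 of the 30 genes fell with copper, against 1.71% of all genes.

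Lead was the 1 chemical whose calls among the 30 genes were all higher. MSMO1 stood at 475, 537, 414 and 455 CPM at 25 µM and at 272 to 394 CPM, median 338, in the controls, without overlap (log2 0.51, SE 0.112, edgeR adjusted p = 0.001721). FADS1, a fatty acid desaturase, stood at 209, 220, 146 and 179 CPM against 105 to 165 in the controls, and the library numbered 3 overlapped them (log2 0.49, SE 0.0981, edgeR adjusted p = 0.0003877). Without replicate 3, 5 genes were called. At the lower doses MSMO1 lay at 331, 312, 338 and 295 CPM (2.5 µM), 274, 243, 266 and 273 (0.25 µM) and 266, 299, 260 and 252 (0.025 µM), that is near or below the control median.

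Fitted as a trend over dose, 7 of the 30 genes rose with lead and none fell, against 0.868% of all genes called. Per 10-fold dose, MSMO1 rose by 0.27 on the log2 scale (SE 0.0458, edgeR adjusted p = 4.642e-05), HMGCS1 by 0.28, IDI1 (isopentenyl diphosphate isomerase) by 0.19, FADS1 by 0.19, EBP (a sterol isomerase) by 0.18, FDPS by 0.16 and FDFT1 by 0.13. FADS1 is the 1 fatty acid gene among these 7. Same-numbered lead libraries deviated together, and with the replicate block 11 genes were called, 10 rising and SREBF1 falling by 0.20 per 10-fold dose. The rise starts from low values, since the median of the 30 genes was below 0 against controls at each of the 3 lower doses of lead.

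Within replicates 1 and 2 of lead at 25 µM, 8 genes were higher and 1 lower (4.94% of all genes called). Within replicates 3 and 4, 2 were higher and 1 lower (3.65%). HMGCS1 was the 1 gene whose difference between number sets was called, against 0.354% of all genes. It was 0.72 higher on the log2 scale in replicates 1 and 2 and 0.02 higher in replicates 3 and 4. Its libraries read 231, 269, 224 and 213 CPM, a narrow range, against 130 to 162 CPM in the first-numbered and 198 to 227 CPM in the last-numbered controls, and those 2 sets of controls did not overlap.

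DDE, from the earlier run, had 15 of the 30 genes lower at 25 µM and none higher (median -0.51 log2 against -0.03 over all genes). Sterol enzymes made up 6 of the 15, the mevalonate genes 3, the fatty acid genes 4 and the regulators and carriers 2. DHCR7 measured 417, 245, 251 and 251 CPM against 448 to 662 in the 8 controls, without overlap (log2 -0.93, SE 0.187, edgeR adjusted p = 0.02106). SCD measured 323, 265, 223 and 210 CPM against a median of 650 (log2 -1.20, SE 0.237, edgeR adjusted p = 0.02106), and FASN 320, 313, 266 and 256 CPM against a median of 531 (log2 -0.79, SE 0.166, edgeR adjusted p = 0.02232). For SCD and FASN 1 control overlapped the exposed libraries, at 229 and 255 CPM. That library also held 2.16 CPM of HMGCS1, where the other 7 controls held 24.8 to 97.7 CPM.

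TM7SF2 was the member with the largest fall with DDE, to 8.8, 12.8, 4.0 and 7.9 CPM from 23.9 to 42.9 CPM in controls (log2 -1.86, SE 0.375, edgeR adjusted p = 0.02106). After SCD, the next largest falls were those of STARD4 (-1.08), SC5D, a sterol desaturase (-1.03), ACSS2 (-1.002) and MVD, which makes isopentenyl diphosphate (-0.95). At 2.5 µM TM7SF2 alone was called (log2 -1.66, edgeR adjusted p = 0.04867, 0.496% of all genes called). Medians at 2.5, 0.25 and 0.025 µM were -0.37, -0.11 and -0.21 log2, and no member had a trend with DDE. The 4 doses share a solvent label and a plate label, and the controls carry others.

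**Figure D4:**
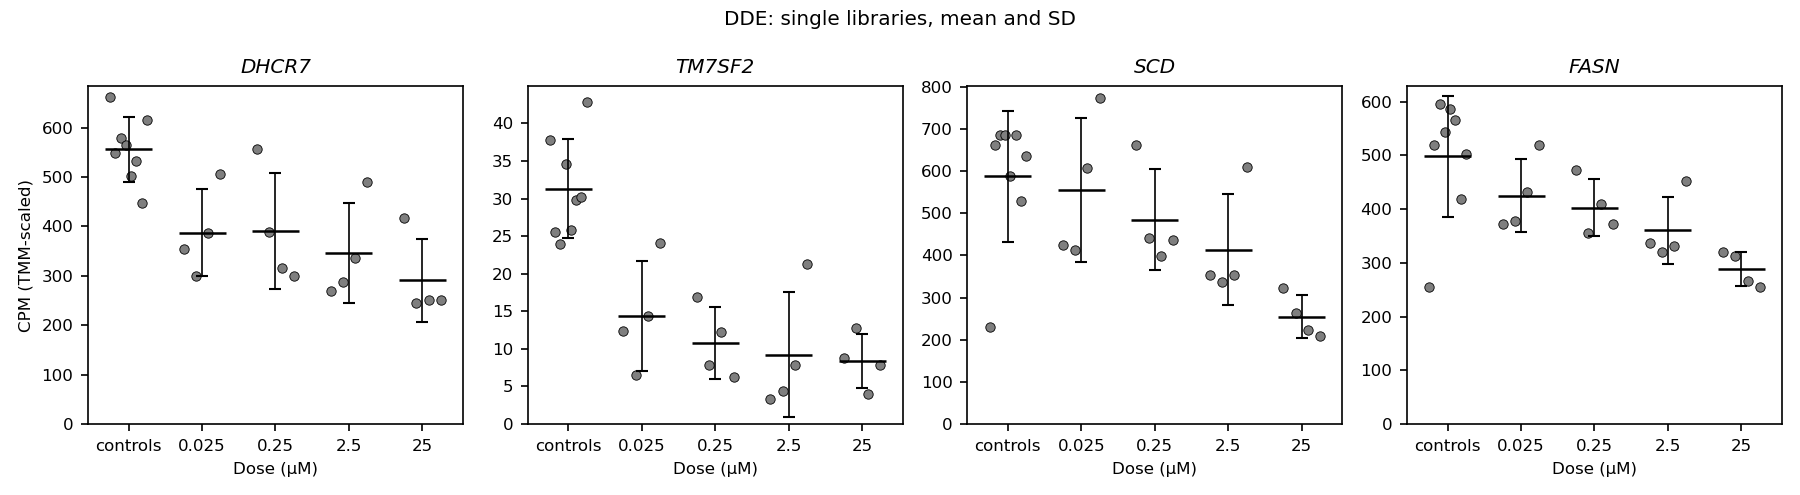
CPM (y axis, linear from 0) of DHCR7, TM7SF2, SCD and FASN in each DDE library by dose in µM (x axis) and in the 8 controls of the same barcode, with a bar for the group mean and an error bar of 1 SD. All 4 libraries at 25 µM lie below the controls for DHCR7 and TM7SF2.

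The DDE calls depended on single libraries. Without the second library of each dose, or without the third, none of the 30 genes was called (DHCR7 then at log2 -0.86 with edgeR adjusted p = 0.1304, or -0.87 with 0.1494), while without the first 16 were called and without the fourth 10. DHCR7 read 355, 299, 387 and 507 CPM at 0.025 µM, 556, 389, 317 and 301 at 0.25 µM and 269, 287, 337 and 491 at 2.5 µM. At each dose the library at an end of the numbering, number 1, 8, 9 or 16, was the highest. Without those 4 numbers in the exposed and the control libraries, 21 genes were called at 25 µM, 18 at 2.5 µM, 13 at 0.25 µM and 15 at 0.025 µM. The share of all genes called in that fit is not given here, so these counts cannot be set against a background. With all libraries 1 was called at 2.5 µM, 0 at 0.25 µM and 0 at 0.025 µM. The libraries left out include the exposed ones with the highest DHCR7, so the larger counts are no independent support for a change.

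PCB187, a polychlorinated biphenyl, had 5 genes called among all 21307 tested at 25 µM, and 3 of the 5 were members, all lower. IDI1 stood at 140, 142, 142 and 144 CPM against 160 to 253 in the 15 controls, median 202, without overlap (log2 -0.51, SE 0.0934, edgeR adjusted p = 0.002958). DHCR7 stood at 208, 229, 182 and 205 CPM against 243 to 346, also without overlap (log2 -0.52, SE 0.108, edgeR adjusted p = 0.01906). LSS, at 78.6, 65.2, 57.2 and 60.4 CPM against 62.2 to 131, overlapped the lowest control (log2 -0.71, SE 0.141, edgeR adjusted p = 0.01092). Of the 30 genes, 28 had values below 0 (median -0.31 log2 against -0.01 over all genes), and 22 passed an unadjusted p of 0.05. The share of all genes that passed an unadjusted p of 0.05 is not given here. INSIG1 (log2 -0.67), HSD17B7, a sterol ketoreductase (-0.63), and MVD (-0.59) were not called. Without replicate 4 none of the 30 genes was called, while DESeq2 called 8 and the fit without a filter on low counts 10.

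As a trend over dose, IDI1 (-0.21 log2 per 10-fold dose, SE 0.0368, edgeR adjusted p = 0.002295) and LSS (-0.27, SE 0.0558, edgeR adjusted p = 0.03779) fell with PCB187, and they were the only 2 genes called of all tested (0.00939%). IDI1 read 185, 198, 169 and 157 CPM at 2.5 µM, 231, 239, 203 and 216 CPM at 0.25 µM and 187, 227, 204 and 252 CPM at 0.025 µM, so that only the libraries at 25 µM lay wholly below the controls. LSS read 51.4, 88.2, 72.7 and 75.8 CPM at 2.5 µM, near its levels at 25 µM. The IDI1 trend was lost without replicate 2 or without replicate 4. Within replicates 1 and 2 none of the 30 was called with edgeR (median -0.37, 0.00469% of all genes), and within replicates 3 and 4 2 were (median -0.31, 0.117%). The difference between the number sets was called for none of the 30.

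**Figure D5:**
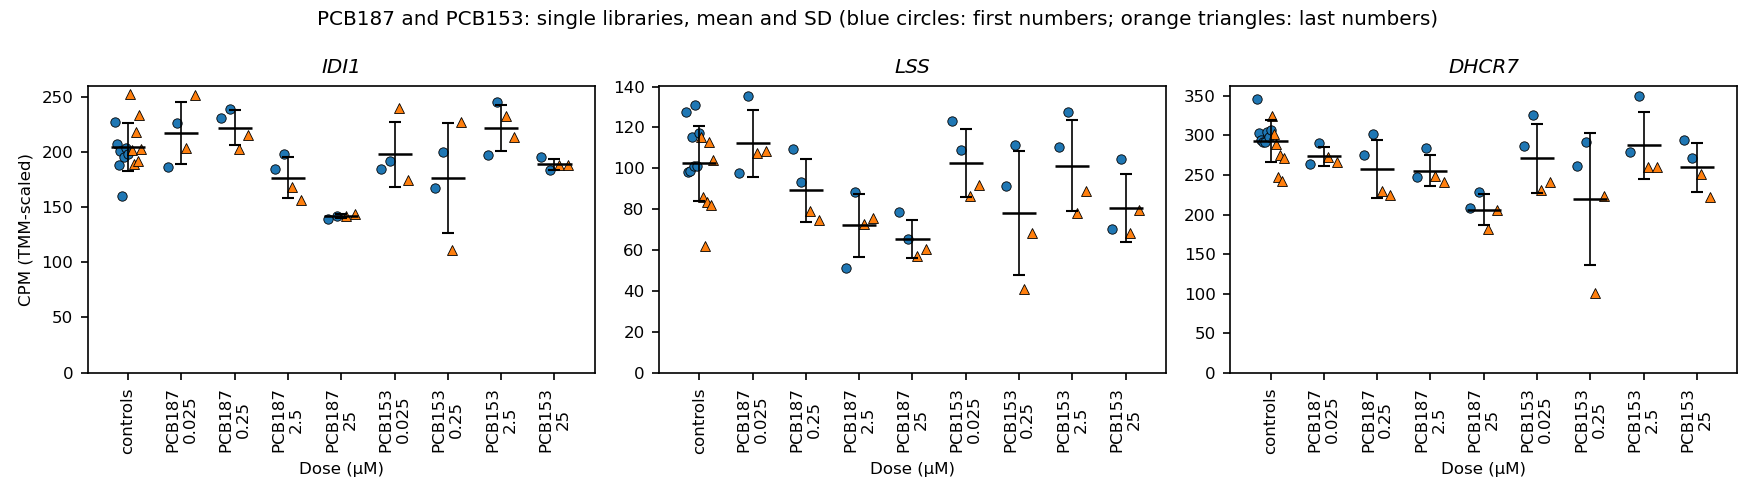
CPM (y axis, linear from 0) of IDI1, LSS and DHCR7 in each library of the PCB187 and PCB153 dose series by dose in µM (x axis) and the DMSO controls of their plate, with circles for the first and triangles for the last numbers, a bar for the group mean and an error bar of 1 SD. At 25 µM PCB187, IDI1 lies at 140 to 144 CPM, below every control.

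PCB153, which carries fewer chlorine atoms than PCB187, had IDI1 at 196, 184, 188 and 188 CPM, DHCR7 at 294, 272, 251 and 222 CPM and LSS at 70.3, 104, 68.3 and 79.4 CPM at the same dose. The direct test of PCB187 against PCB153 at 25 µM called none of the 30 genes with edgeR. IDI1 was 0.41 lower with PCB187 on the log2 scale (95% interval -0.63 to -0.19, unadjusted p = 0.0004022), DHCR7 0.34 lower (-0.59 to -0.08) and LSS 0.33 lower (-0.67 to 0.0008). In that pair 24 of the 30 differences were below 0 with a median of -0.26, and 11 passed an unadjusted p of 0.05. For this pair too, the share of all genes at that unadjusted p is not given here.

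Besides PCB187 and PCB153, 5 pairs of related compounds were tested at 25 µM, and none of the 30 genes was called in any of the 6 pairs, against 0.000769% of all tests. DESeq2 called 0 members as well, and 1 to 11 members of a pair passed an unadjusted p of 0.05. The median difference was -0.14 log2 for BPA minus BPF, -0.09 for BPA minus BPS, 0.05 for BPF minus BPS, 0.05 for MPB minus PPB and -0.01 for PFDA minus PFNA. The 95% intervals of single members in these 5 pairs ran from -0.88 to 0.65. Those ends belong to members with a large spread: the SE of a difference ran from 0.066 for FDFT1 to 0.295 for TM7SF2, with a median of 0.118 over the members and pairs.

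Arsenic changed 23 of the 30 genes at 25 µM, where 41.4% of all genes were called. The fatty acid genes had the lowest median of the 4 roles, -1.60 log2 against 0.00 over all genes, and 7 of 8 fell. ACLY measured 139, 107, 143 and 112 CPM against 290 to 397 in controls (log2 -1.40, SE 0.0977, edgeR adjusted p = 3.324e-23), and FASN 37.5, 49.1, 78.3 and 52.5 CPM against 136 to 264 (log2 -1.96, SE 0.156, edgeR adjusted p = 4.993e-20). Neither gene's exposed libraries overlapped the controls. ACACA (-1.92), ELOVL6 (-1.84, SE 0.134, edgeR adjusted p = 3.524e-22) and SCD (-1.79) fell by similar amounts, and the desaturases FADS2 (-0.59) and FADS1 (-0.30) by less. FADS2 was also the 1 gene whose difference between number sets was called with arsenic, against 0.7% of all genes (log2 -1.09 in replicates 1 and 2, -0.04 in replicates 3 and 4).

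In the sterol branch of arsenic-exposed cells the falls were uneven. DHCR7, at 112, 86.6, 107 and 140 CPM against 272 to 311, fell by 1.40 on the log2 scale (SE 0.114, edgeR adjusted p = 1.906e-19), MVK, the mevalonate kinase, by 1.49, and LSS was also lower (log2 -1.254). FDPS fell by 0.27. MVD (-0.06), MSMO1 (0.14), IDI1 (0.16) and STARD4 (0.32) were not called. SC5D rose, to 107, 128, 150 and 146 CPM from 38.2 to 79.4 CPM in controls (log2 1.29), without overlap. Of the regulators, SREBF1 fell by 1.10, INSIG1 by 0.67 and SREBF2 by 0.32. With size factors of DESeq2's kind in place of TMM the median of all genes moved up by 0.14 at this dose, a shift smaller than each called change.

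At 2.5 µM arsenic, 4 of the 30 genes were called lower against 1.96% of all genes, and all 4 were also called lower at 25 µM. They were FDPS (log2 -0.40), FDFT1 (-0.33), DHCR7 (-0.47) and ACLY (-0.42). The library numbered 3 stood apart: it held 288.5 CPM of FDFT1, where the others held 439 to 542 CPM, 118 CPM of DHCR7, where they held 201 to 294 CPM, and 454 CPM of FASN, where they held 170 to 183 CPM. Without replicate 3, 2 members were called, without replicate 4 none, and without replicate 1 or 2 the counts were 6 and 5. As a trend, 15 genes fell and 1 rose with arsenic, against 29.7% of all genes.

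Thiram, a dithiocarbamate fungicide, had 17 genes lower and 4 higher at 25 µM (median -0.47 log2 against -0.11 over all genes). Among sterol enzymes 8 of 11 fell and 1 rose, among the fatty acid genes 6 of 8 fell, among the mevalonate genes 3 fell and 2 rose, and of the regulators 1 rose. ELOVL6 stood at 62.1, 31.98, 32.3 and 47.6 CPM against 96.8 to 198 in controls (log2 -1.50, SE 0.174, edgeR adjusted p = 3.645e-12). EBP stood at 102, 92.4, 57.5 and 55.9 CPM against 133 to 207 (log2 -1.10, SE 0.133, edgeR adjusted p = 1.873e-11). INSIG1 went the other way, with 177, 255, 282 and 135 CPM against 46.9 to 112 (log2 1.24, SE 0.151, edgeR adjusted p = 3.041e-11). None of these 3 genes overlapped its controls.

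IDI1 (log2 0.67), SC5D (0.44) and MVD (0.36) were the other members that rose with thiram. SQLE, the squalene epoxidase, fell to 180, 189, 90.6 and 98.1 CPM from 227 to 316 (log2 -0.96, SE 0.118, edgeR adjusted p = 4.221e-11), and the libraries numbered 3 and 4 were the lower ones. The difference between number sets was called for SQLE (log2 -0.66 and -1.51) and for MSMO1 (0.30 and -0.66), against 1.02% of all genes. Within replicates 1 and 2, 3 of the 30 were higher and 7 lower, with 16.2% of all genes called, and within replicates 3 and 4, 2 were higher and 15 lower, also with 16.2%. Without replicate 3, 13 genes were called. As a trend, 11 fell and 2 rose, against 18.5% of all genes.

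Cadmium at 25 µM moved members in both directions, and it rests on 2 libraries, numbers 1 and 2. The median over all genes tested was -1.42 log2 there, and that of the 30 genes was 0.05, so the values below are set against a shifted background. Of the 30 genes, 9 were higher and 5 lower. HMGCS1 read 918 and 748 CPM against 130 to 227 in controls (log2 2.23, SE 0.22, edgeR adjusted p = 2.375e-14), IDI1 707 and 520 CPM against 175 to 290 (log2 1.53, SE 0.165, edgeR adjusted p = 1.34e-12), and MVD 360 and 274 CPM against 52.7 to 132 (log2 1.89, SE 0.237, edgeR adjusted p = 5.415e-10). Both cadmium libraries lay above every control for all 3 genes.

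MSMO1, at 1188 and 711 CPM against 272 to 394, rose by 1.52 on the log2 scale (SE 0.164, edgeR adjusted p = 1.398e-12), HSD17B7 by 1.85, STARD4 by 1.40 and INSIG1 by 1.37. SREBF1, which drives fatty acid synthesis, read 25.1 and 2.80 CPM against 33.005 to 122 in controls (log2 -2.59), and the 2 libraries differed widely from each other. ELOVL6 (-1.76), SCD (-1.11), SQLE (-1.06) and DHCR7 (-0.69) were the others called lower. The library set aside for its barcode held 70.8 CPM of HMGCS1, 245 CPM of IDI1 and 322 CPM of MSMO1, scaled by its total alone. Its HMGCS1 lay below every control of the metal plate (130 to 227 CPM). Its IDI1 and MSMO1 lay within the control ranges (175 to 290 and 272 to 394 CPM). The controls and the 2 libraries used were scaled by TMM, so its values are not on the same scale. Whether it shared the rise of these 3 genes cannot be read from them. With it included 15 members were called, with HMGCS1 at log2 1.63. Without replicate 1, 9 were called. As a trend over dose, 8 members rose and 4 fell, against 8.96% of all genes.

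BPA, a bisphenol, had a single gene called among 22301 at 25 µM, and it was ACAT2. Its libraries read 152, 148, 159 and 144 CPM against 173 to 234 in the 15 controls, without overlap (log2 -0.38, SE 0.0709, edgeR adjusted p = 0.008198). The call was lost without replicate 1, 3 or 4, with log2 values of -0.38, -0.41 and -0.36. At 2.5 µM 8 members were lower and 1 higher, against 0.605% of all genes. FDPS measured 317, 321, 260.5 and 300.4 CPM there against 375 to 428, without overlap (log2 -0.42, SE 0.0646, edgeR adjusted p = 3.9e-05), and ACAT2 148, 155, 137 and 144 CPM (log2 -0.43). HMGCS1 (-0.48), MVD (-0.40), TM7SF2 (-0.87), MSMO1 (-0.26), SQLE (-0.24) and FDFT1 (-0.20) were lower and SREBF1 (0.45) higher. Leaving out 1 replicate at a time gave 3 to 5 calls. At 25 µM FDPS measured 354, 348, 300.4 and 306 CPM and was not called, so the calls did not grow with dose. At 0.025 µM TM7SF2 alone was lower, at 10.1, 12.7, 10.3 and 9.3 CPM against 13.5 to 39.2 (log2 -1.12, SE 0.227, edgeR adjusted p = 0.01009, 0.13% of all genes called), a call that was lost without replicate 3 or without replicate 4.

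Over the 3 lower doses of all chemicals there were 19 calls, 18 lower and 1 higher, in 6 of 63 groups. Besides arsenic, copper, BPA and DDE, the sixth group was PCB153 at 0.25 µM, with 0.333% of all genes called. FDPS was lower there (log2 -0.39, SE 0.0979, edgeR adjusted p = 0.03706), as was DHCR7 (-0.43, edgeR adjusted p = 0.04055). Their libraries read 318, 357, 139 and 390 CPM for FDPS and 261, 292, 101 and 224 CPM for DHCR7, and INSIG1 read 71.4, 106, 17.9 and 84.7 CPM. The library numbered 3 stood apart in all 3 genes, and without it no member was called. In the other 57 groups edgeR called none of the 30 genes, DESeq2 called 27 members over all of them, and 0 to 18 members per group passed an unadjusted p of 0.05. Over those groups 0.0596% of all tests were called.

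The median of the 30 genes was below 0 in nearly all lower-dose groups of the water-control metal plate (15 of 15), the BPA, BPF, BPS, MPB and PPB plate (15 of 15), the PCB and thiram plate (14 of 15) and the DDE plate (3 of 3), but in 8 of 15 on the PFAS plate. All-gene medians of these groups lay between -0.06 and 0.01. Groups of a plate share their controls and are not independent of each other.

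Dose trends were called for 60 gene and chemical pairs, 42 falling and 18 rising, in arsenic, cadmium, copper, lead, thiram and PCB187. The other 15 trends held no call with edgeR, against 0.0222% of all tests, with 0 to 8 members at an unadjusted p under 0.05 and 2 calls by DESeq2.

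Control wells alone differed with their numbers. On the metal plate 5 of the 30 genes were higher and 4 lower in the last-numbered than in the first-numbered water controls, against 8.84% of all genes, among them HMGCS1 (log2 0.51, SE 0.0769, edgeR adjusted p = 9.348e-08) and IDI1 (0.35, edgeR adjusted p = 0.0003483). On the PCB and thiram plate 3 were lower, against 3.32%, including FASN (-0.45) and PMVK (-0.47). ACSS2 was lower (-0.35) on the BPA plate, against 3.56%, and TM7SF2 higher (0.81) among the DMSO controls of the PFAS plate, against 0.478%. These differences move with depth, which was lower in the last-numbered controls, and the part of depth in them was not tested.

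Dosed libraries differed with their numbers too. Replicates 3 and 4 against 1 and 2 gave 7 members higher and 11 lower on the metal plate (28% of all genes called), 4 and 7 on the BPA plate (12.2%), 5 and 6 on the PFAS plate (18.4%) and 1 and 13 on the PCB and thiram plate (18%). For the 15 chemicals other than arsenic, copper, lead and thiram that could be tested, the response at 25 µM differed between the number sets for none of the 30 genes with edgeR, against 0.0587% of all tests, with 0 to 5 at an unadjusted p under 0.05 and 3 calls by DESeq2.

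The solvents could be compared within the PFAS plate. Against 12 DMSO controls, 2 of the 30 genes were lower in the 4 water controls, with 4.08% of all genes called. MVD stood at 89.7 to 103 CPM in water and 104 to 167 CPM in DMSO, without overlap (log2 -0.46, SE 0.113, edgeR adjusted p = 0.006118). FADS2 stood at 51.02 to 77.7 CPM in water and 71.4 to 113 CPM in DMSO, with overlap (log2 -0.43, SE 0.115, edgeR adjusted p = 0.01403), and its call was lost without any 1 of 3 of the water controls (log2 -0.43 to -0.35). In the separate DDE run both genes were lower in the exposed libraries than in the controls (MVD by 0.95 and FADS2 by 0.90 on the log2 scale). Exposure, solvent and plate label cannot be told apart there, and the part of the solvent was not tested.

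Counted by gene, DHCR7 was lower at 25 µM in 6 chemicals, LSS in 5 and SCD in 5. FDFT1 and INSIG1 were called in 5 chemicals each, with both directions. CYP51A1, the gene with the largest exon overlap, was called in none. Between plates, which share no controls, 14 genes were lower with both copper and thiram, 77.8% of copper's 18 and 82.4% of thiram's 17. Arsenic and thiram shared 15 lower genes, 68.2% of 22 and 88.2% of 17. Copper and DDE shared 10, 55.6% of 18 and 66.7% of 15, arsenic and DDE 8, 36.4% of 22 and 53.3% of 15, DDE and thiram 7, 46.7% of 15 and 41.2% of 17, and cadmium and DDE 2, 40.0% of 5 and 13.3% of 15. Cadmium and thiram shared 4 lower genes, 80% of 5 and 23.5% of 17. Lists that take up most of the 30 genes overlap by their size alone, and no test was made. Cadmium and thiram shared 3 higher genes, IDI1, INSIG1 and MVD, which are 33.3% of 9 and 75.0% of 4.

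A wider list of 33 genes around the pathway was examined in the same fits. With arsenic 10 were higher and 16 lower, with thiram 4 and 13, with cadmium 5 and 4, with copper 1 and 6, with lead 1 and 1, and with DDE 0 and 3. All calls of the list at 25 µM by edgeR came from these 6 chemicals. ME1, which makes NADPH for fatty acid synthesis, was higher with arsenic (log2 1.74), cadmium (0.93), thiram (0.82), lead (0.60) and copper (0.45) and lower with DDE (-0.99). LPIN1, a phosphatidate phosphatase, was lower with arsenic (-2.215), copper (-1.03), thiram (-0.83) and lead (-0.82). SLC25A1, which exports citrate from mitochondria, was lower with thiram (-1.08), arsenic (-1.05) and copper (-0.47). MYLIP, a ubiquitin ligase, was higher with thiram (6.01), arsenic (3.59) and cadmium (3.19), and NPC1, which moves cholesterol out of lysosomes, with arsenic (1.57), cadmium (1.12) and thiram (0.98).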

How the data were processed

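Per the submitters' processing notes, reads were processed with FastQC, MultiQC, STAR, featureCounts and GRCh38, listed without roles. Annotation, strand setting and gene filter: not given in the sources used here. The authors deposited whole-number read counts per gene symbol, not normalized, as judged from the values, 1 file per library. The 30 genes and the wider list were chosen with earlier results of these data known.

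Within each plate barcode, genes were kept by edgeR's filterByExpr (minimum count 10, minimum total 15), scaled by TMM and fitted with a mean per chemical and dose (edgeR 4.0.16, limma 3.58.1, R 4.3.3). The quasi-likelihood test was used with Benjamini-Hochberg adjustment over all genes tested. Trends were a linear contrast over the 4 doses in their order, without controls. CPM used the TMM-scaled library size. The scripts were tested on simulated data with changes of 0.4 and 1 on the log2 scale. For PCB187 at 25 µM, 17% of the 0.4 changes and 85% of the 1 changes were recovered, with 52 false calls. For lead at 25 µM the shares were 25% and 91%, with 66 false calls. Among genes over 4 log2 CPM, 11% of calls were false for PCB187 and 9.5% for lead. A dose simulated without change gave 0 calls for PCB187 and 13 for lead. A missing call therefore does not exclude a change near 0.4. Each size of change was given to 100 genes, so the false calls were many beside the changes recovered. In both simulations the share of false calls exceeded the adjusted p threshold of 0.05, also among genes over 4 log2 CPM. A call at that threshold may thus be false more often than 0.05 implies. The rule for genes given with SE and adjusted p took the 4 called members with the smallest p per chemical at 25 µM, all called for PCB187, the 2 with the smallest p at each lower dose and for trends outside arsenic, thiram and cadmium, the 2 per control contrast and, of the wider list, the 2 per chemical. Other members printed were chosen after their values were seen.

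Replicate numbers were taken to pair the dosed libraries of a chemical where every same-number correlation of deviations from group means exceeded 0.1, over genes of at least 10 CPM. This held for lead (lowest 0.354), mercury (0.32), PFOA (0.217) and copper (0.154). Alternatives were DESeq2 1.42.0, its size factors, no filter, each replicate left out, 2 groups alone, a number-set term and the number sets alone.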

Additional observations from a re-analysis of the deposited data

Results flagged for a closer look

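In groups of 4 to 10 libraries, 31 groups of values of the genes given by library were checked for a library far from the rest, and chance alone marks about 1 group in 20. Among the 8 controls of the DDE barcode, the library numbered 9 held 229.3 CPM of SCD, while the others held 529 to 686 CPM. At 25 µM DDE the library numbered 1 held 417.3 CPM of DHCR7, while the others held 245 to 251 CPM.

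The response at 25 µM differed between replicates 3 and 4 and replicates 1 and 2, each against the controls of their own numbers, for 13 pairs of gene and chemical (edgeR adjusted p under 0.05 for the difference itself). For copper the log2 difference between the sets was 1.24 for INSIG1, 1.23 for SCD, 1.05 for FADS2, 0.94 for HMGCS1, 0.9 for MVK, 0.83 for ACAT2, 0.67 for ELOVL6, 0.61 for DHCR7 and 0.54 for FDFT1. Each was a smaller estimated fall in replicates 3 and 4, called there for SCD, HMGCS1, ELOVL6 and DHCR7 only. For arsenic it was 1.06 for FADS2, whose fall was not called in replicates 3 and 4. For lead it was -0.7 for HMGCS1, whose rise was not called in replicates 3 and 4. For thiram it was -0.96 for MSMO1 and -0.86 for SQLE, lower in replicates 3 and 4. Depth and control levels also differ between these number sets, and their part in the differences was not tested.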

How the results depend on the processing

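No count or named gene changed direction under the alternatives run. Counts of members called at 25 µM that moved by over 1.5 times are given next, with the cause not tested unless fewer libraries entered. With DESeq2's size factors BPA gave 2 and PCB187 6. Without the count filter BPA gave 3, BPS 1, lead 4, MPB 1, PCB153 3, PCB187 10 and PFNA 1. With DESeq2 BPA gave 3, PCB187 8 and PFDA 1, and with the 2 groups alone PCB187 gave 8. With the number set as a term BPA gave 3, BPS 1, lead 8, MPB 1, PCB187 8 and PFNA 1. Replicates 1 and 2 alone gave BPA 0, BPS 1, lead 9, MPB 2, PCB187 0, PFDA 1, PFNA 1, PFOA 1 and thiram 10, and replicates 3 and 4 alone gave copper 5. Against DMSO controls PFOA gave 2. DDE gave 21 without the end numbers, which include the exposed libraries with the highest DHCR7. Shares of all genes called under these alternatives are not given here.

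Leaving out 1 replicate at a time gave 0 to 2 for BPA, 9 to 10 for cadmium, 11 to 21 for copper, 0 to 16 for DDE, 2 to 5 for lead, 0 to 1 for PCB153, 0 to 4 for PCB187 and 13 to 20 for thiram. At 2.5 µM the sum of 16 calls became 36 with DESeq2, 26 with the number set as a term and 10 to 19 without single replicates. At 0.25 µM the sum of 2 became 4 with size factors, 10 without a filter, 13 with DESeq2, 19 with the number-set term and 1 to 10 without single replicates. At 0.025 µM the sum of 1 became 5 without a filter, 12 with DESeq2, 4 with the number-set term and 0 to 7 without single replicates.

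Water against DMSO controls, 2 genes, gave 5 with DESeq2, 5 with the number-set term and 1 to 2 without single water controls. Between control numbers DESeq2 gave 2 on the BPA plate, 3 on the PFAS plate and 7 on the PCB and thiram plate, where size factors gave 1, no filter 5 and the controls alone 5. Differences between number sets at 25 µM were 29 with DESeq2 against 13. Trends, 60 in all, gave 78 with the replicate block and 40 to 62 without single replicates. The block raised lead from 7 to 11 and copper from 10 to 15.

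Precision is limited by 4 libraries per dose, by 2 at cadmium 25 µM and by last-numbered controls of low depth (medians of 3.17 and 3.18 M counts) on 2 plates. At cadmium 25 µM, members of low expression also rest on few reads. P-values of groups on a plate share controls.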
